A study of Mus musculus with 10 samples.

Results

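Genes of mitosis and DNA replication are switched on in cells that divide, and adult cardiomyocytes (CMs) are known to divide rarely. Here 36 of them were followed in RNA sequencing of CMs from old mice (20 months) and young mice (3 months), with 5 libraries per age. They were taken by symbol from the 37819 features of the deposited FPKM table, 24 for their place in mitosis and 12 for their place in DNA replication. All 36 were found, each in 1 entry, and all were kept whatever their level. Old and young mice alike were inbred C57BL6J of mixed sex, with no genetic change or drug named, and age is the only labelled difference. CMs were released from perfused hearts by enzymes, and magnetic beads then took out cells carrying CD31 (on endothelial cells), CD45 (on leukocytes) or Sca-1 (on stromal cells). A figure legend of the study names fewer mice per age for its CM sequencing than there are libraries, while another gives n = 5 per age group. The labels tie no library to an animal, so whether every library is a separate animal is not settled, and n counts libraries.

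In a dividing cell the minichromosome maintenance (MCM) proteins are loaded on the DNA as a helicase, the clamp Pcna holds the polymerases on the template, and ribonucleotide reductase and thymidylate synthase supply the building blocks. Cyclin-dependent kinase 1 with its cyclins then starts mitosis, motors and kinetochore proteins move the chromosomes, and the anaphase-promoting complex ends mitosis by having securin and the cyclins degraded. Many of the mitosis genes are known to be driven through CCAAT boxes and the cell cycle homology region (CHR), and many of the replication genes through E2F sites. In the adult heart most of this RNA is known to be scarce in CMs, while endothelial cells, leukocytes and fibroblasts of the same tissue can divide.

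The labelled cell type was borne out by its markers, and RNA of other cells was also present. All 9 CM markers, among them the myosin heavy chain gene Myh6 and the troponin gene Tnnt2, were detected, and their summed level was 34940 to 39520 FPKM in old and 36480 to 44090 FPKM in young libraries. The summed level of 10 endothelial markers was 197 to 387 FPKM in old and 166 to 356 FPKM in young libraries, that of 16 leukocyte markers 45.9 to 91.8 in old and 39.6 to 104.5 in young, that of 9 fibroblast markers 53.7 to 153 in old and 56.5 to 146 in young, and that of 6 mural cell markers 72.3 to 149 in old and 79.4 to 155 in young. Old library 1 and young library 4 were the highest of their age in all 4 of these sums. Their distance to the next library differed between the sums. The next young library had 127 FPKM of mural markers against 155, and the next old library 90.3 FPKM of fibroblast markers against 153. The summed level of 7 granulocyte markers was 0 to 0.753 FPKM in old and 0.06 to 0.243 FPKM in young libraries, with Elane and Mpo at 0 in every library. That of 7 erythroid markers was 1.365 to 5.95 FPKM in old and 2.61 to 23.9 FPKM in young libraries, with Kel at 0 in every library. The globin genes Hba-a1 and Hbb-b1 were highest in young library 1, at 14.2 and 9.74 FPKM. In bulk RNA, more cells of a type and more RNA per cell cannot be told apart. The number of reads in each library is not given by the files, so the authors' mean normalized count over the libraries was used to judge depth.

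The promoters of the members are described first, and a link between them and the levels was not tested. RefSeq promoters (GRCm38.p6, 250 bases before to 50 bases after each start) were matched by symbol for 31 of the 36 members, 20 of mitosis and 11 of replication, out of 27025 genes. The letters searched on both strands were CCAAT for the CCAAT box, TTTGAA and also TTCGAA for the CHR, and for E2F TTCCCGC and also TTGGCGC and also TTCGCGC and also TTGCCGC. CHR letters stood in 14 of 20 mitosis promoters (70%) and in 3 of 11 replication promoters (27.3%), against 21.7% of all promoters. E2F letters stood in 3 of 20 mitosis promoters (15%) and in 7 of 11 replication promoters (63.6%), against 10.9% of all promoters. The CCAAT box was found in 16 of 20 (80%) and 9 of 11 (81.8%), against 41.1% of all promoters. A match of such short letters is a description and not a binding site.

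The 150 bases before the start are given for 6 members, with the searched letters on either strand in capitals. Ube2c, Cdk1 and Top2a are shown as mitosis genes with CCAAT boxes and CHR letters, Mcm6 and Pcna as the replication genes that varied with the endothelial marker, and Pttg1 as the member with the highest level. In Mcm6 each capital run of 10 letters holds 2 E2F matches that overlap on opposite strands. The Pcna window holds 1 CCAAT box in reverse and the Pttg1 window none of the letters searched.
Ube2c (chr2:164769779-164769928, plus strand): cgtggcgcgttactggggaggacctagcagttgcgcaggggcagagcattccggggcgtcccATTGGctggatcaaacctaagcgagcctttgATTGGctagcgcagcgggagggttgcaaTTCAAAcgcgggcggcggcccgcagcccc
Cdk1 (chr10:69352913-69353062, minus strand): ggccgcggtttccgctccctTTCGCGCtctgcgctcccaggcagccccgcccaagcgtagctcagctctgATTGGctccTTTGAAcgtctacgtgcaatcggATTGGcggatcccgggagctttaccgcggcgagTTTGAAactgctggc
Top2a (chr11:99024190-99024339, minus strand): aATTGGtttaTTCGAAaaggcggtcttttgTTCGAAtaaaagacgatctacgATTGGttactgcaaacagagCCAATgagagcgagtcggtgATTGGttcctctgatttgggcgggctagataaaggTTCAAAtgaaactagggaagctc
Mcm6 (chr1:128359706-128359855, minus strand): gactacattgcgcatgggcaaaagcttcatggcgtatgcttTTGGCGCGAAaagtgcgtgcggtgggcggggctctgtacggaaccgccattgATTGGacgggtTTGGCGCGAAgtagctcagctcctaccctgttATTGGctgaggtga
Pcna (chr2:132253181-132253330, minus strand): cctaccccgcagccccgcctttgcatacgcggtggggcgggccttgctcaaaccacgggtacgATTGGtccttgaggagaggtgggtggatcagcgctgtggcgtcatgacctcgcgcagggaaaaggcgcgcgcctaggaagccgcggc
Pttg1 (chr11:43425982-43426131, minus strand): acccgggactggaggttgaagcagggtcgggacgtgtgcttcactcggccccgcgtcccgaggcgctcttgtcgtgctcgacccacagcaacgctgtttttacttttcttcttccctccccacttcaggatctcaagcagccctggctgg

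Most of the 36 genes were near the lower end of what these libraries could measure. Their mean FPKM over the 10 libraries went from 0.101 for the checkpoint kinase gene Bub1 to 84.3 for the securin gene Pttg1, with a median of 0.801. FPKM counts fragments relative to the length of the transcript and to the size of the library, so levels of different genes can be set side by side. Only Pttg1 and Pcna, at 18.4 FPKM, were above 5 FPKM. The authors' mean normalized count was 4.54 for Bub1, 703 for Pttg1 and 28.2 for the median member, and it was below 20 for 17 members. In 5 members, Bub1, Mad2l1, Mcm2, Cdc45 and Rrm1, the spread between libraries of 1 age was smaller than the counting error that this mean count implies. A total of 15 members had a mean of at least 1 FPKM and were tested for age together with the other features, and 21 did not.

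**Figure D1:**
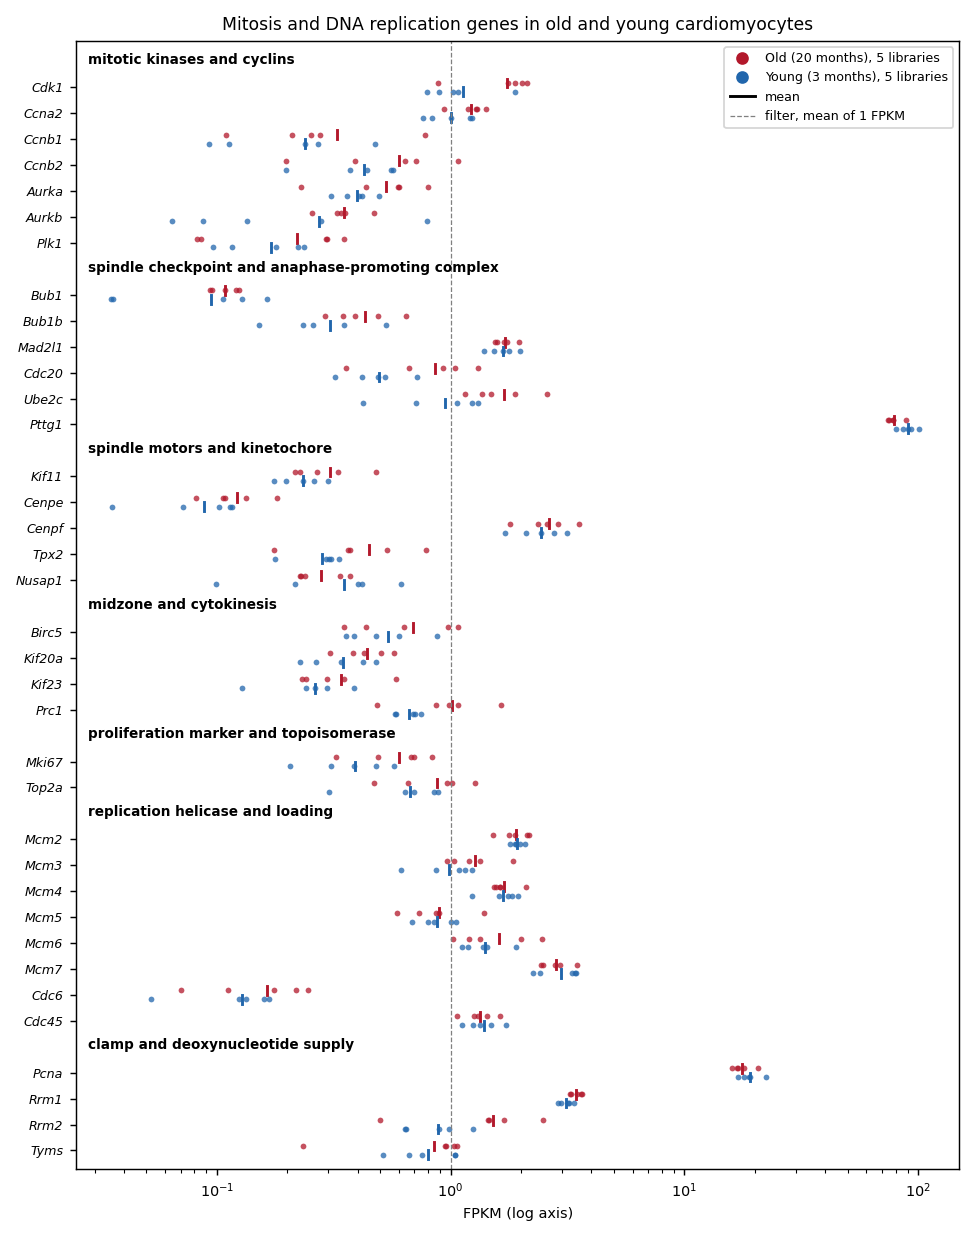
FPKM of the 36 members on a log axis, with a point for each old library (red, upper row) and each young library (blue, lower row), a bar at the mean of each age, and members grouped by role. The dashed line marks the minimum mean of 1 FPKM, which 21 members do not reach, and for every member the old and young points overlap.

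No member passed the test for a difference between old and young CMs. Of the 15 tested members 0 were called by limma on log2(FPKM + 1) after Benjamini-Hochberg adjustment over all 12340 tested features, against 1.78% of those features (220, of which 85 or 0.689% were higher and 135 or 1.09% lower in old). The smallest adjusted p of a member was 0.149, and 2 members, Pttg1 and Ube2c, had an unadjusted p under 0.05, against 20.9% of all tested features. Without the filter, and with a pseudocount of 0.1, 0 of all 36 members were called, against 0.686% of 25202 features, and 3 had an unadjusted p under 0.05, against 14.4%. In 0 members did the old and young libraries fall into ranges that do not overlap, against 6.91% of tested features and 4.18% of all features above 0. Among the tested members 10 were higher and 5 lower in old, against 31.3% of tested features higher. Their median log2 difference was 0.08, and that over all tested features was -0.06. With median-ratio scaling, which moved that overall median to about 0, 13 tested members were higher and 2 lower, and the called features became 106 higher and 29 lower in old.

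**Figure D2:**
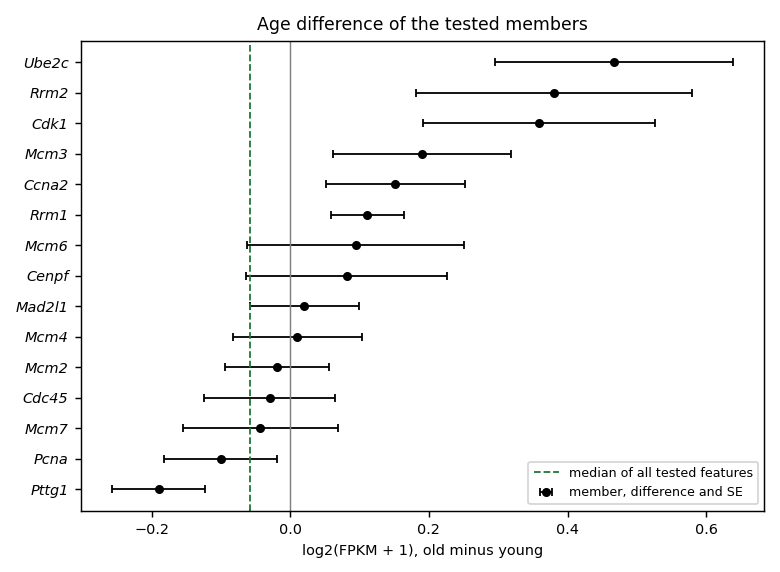
Difference in log2(FPKM + 1), old minus young, for the 15 tested members, with bars for the SE and a dashed line at the median of all tested features (-0.06). Ube2c (0.47) and Pttg1 (-0.19) lie at the ends, and neither passed the adjusted test.

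Means were higher in old for most members, a count that was not tested. By mean FPKM 30 of the 36 members were higher and 6 lower in old, while 43.8% of all features above 0 had a higher mean in old. Of the 21 members below 1 FPKM 20 were higher in old, against 53.4% of the 4893 features with a mean in the same range. By role the mean was higher in old for 7 of 7 kinases and cyclins, 5 of 6 genes of the checkpoint and the anaphase-promoting complex, 4 of 5 genes of spindle motors and kinetochore, 4 of 4 genes of the midzone and cytokinesis, and both of Mki67 and Top2a. It was higher in old for 5 of 8 helicase and loading genes and 3 of 4 genes of clamp and nucleotide supply. The members are not independent of each other, since they vary together between libraries. Leaving out each library in turn gave 26 to 31 members with a higher mean in old, 26 without old library 1 and 31 without old library 4. Without old library 1 and young library 4 together there were 27.

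Kinases and cyclins were low, and each had a higher mean in old. Cdk1, the kinase that starts mitosis (chr10:68799383-68815686, minus strand, mm9), had 1.77, 2.12, 2.03, 0.888 and 1.89 FPKM in old libraries 1 to 5, against 1.02, 1.08, 1.89, 0.792 and 0.893 FPKM in young libraries 1 to 5. Old library 4 lay among the young and young library 3 among the old libraries. Its log2 difference was 0.36 ± 0.17 (SE, limma adjusted p = 0.255). Ccna2, a cyclin of S phase and early mitosis, had 1.30, 1.42, 1.28, 0.937 and 1.19 FPKM in old, against 0.833, 1.0, 1.21, 1.23 and 0.765 FPKM in young libraries. Here 3 of 5 old libraries were above the highest young library, and the log2 difference was 0.15 ± 0.10 (SE, limma adjusted p = 0.431). Ccna2 overlaps Exosc9 on the opposite strand over 14.6% of its exon bases, and Exosc9, far more abundant at 10.2 ± 1.26 FPKM in old and 11.9 ± 0.692 FPKM in young CMs (SD, n = 5 each), had a log2 difference of -0.21.

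The other members of the group were below 1 FPKM and received no age test in the filtered fit. Ccnb1, the cyclin of mitotic entry, had 0.109 to 0.775 FPKM in old and 0.0926 to 0.477 FPKM in young libraries. As 83.1% of its longest transcript has near-identical copies elsewhere in the genome, its level is uncertain. Ccnb2, another B-type cyclin, had 0.601 ± 0.333 FPKM in old and 0.425 ± 0.152 FPKM in young CMs (SD, n = 5 each). Aurkb, the kinase of the chromosomal passenger complex, spread most of all members, by 12.4-fold between the highest and the lowest library, and both of these were young. Aurka and Plk1, kinases of the centrosome and of mitotic progression, had old-to-young ratios of means of 1.34 and 1.30.

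Genes of the spindle checkpoint and the anaphase-promoting complex held both ends of the age comparison. Ube2c, the ubiquitin-conjugating enzyme that serves the anaphase-promoting complex (chr2:164595398-164604322, plus strand, mm9), had 1.89, 2.58, 1.36, 1.16 and 1.49 FPKM in old, against 1.31, 1.07, 1.24, 0.708 and 0.422 FPKM in young libraries. All old libraries but library 4 were above the highest young library. The log2 difference was 0.47 ± 0.17 (SE), the largest of the tested members, with an unadjusted p of 0.0211 and a limma adjusted p of 0.162. Over 22.8% of its exon bases Ube2c overlaps Tnnc2, the gene of fast skeletal troponin C, on the opposite strand. Tnnc2 was at 0.190 ± 0.139 FPKM in old and 0.271 ± 0.181 FPKM in young CMs (SD, n = 5 each), lower in mean in old where Ube2c was higher.

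Pttg1, the gene of securin, which holds back the enzyme that parts sister chromatids, was by far the most abundant member (chr11:43233752-43239753, minus strand, mm9). It had 74.7, 74.5, 78.3, 77.6 and 88.4 FPKM in old, against 100.6, 85.9, 80.4, 90.1 and 92.9 FPKM in young libraries. Every old library but library 5 was below the lowest young library. Its log2 difference was -0.19 ± 0.07 (SE), with an unadjusted p of 0.0171 and a limma adjusted p of 0.149. Its level was 84.3 FPKM while that of Ube2c, which acts in the same step, was near 1.32 FPKM.

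The remaining genes of this group were Bub1, Bub1b and Mad2l1, which delay anaphase until all chromosomes are attached, and Cdc20, the activator of the anaphase-promoting complex. Mad2l1 was at 1.71 ± 0.161 FPKM in old and 1.67 ± 0.228 FPKM in young CMs (SD, n = 5 each), a log2 difference of 0.02 with all old libraries inside the young range. A near-identical copy covers 26.9% of its longest transcript. Cdc20 was at 0.860 ± 0.363 FPKM in old and 0.493 ± 0.147 FPKM in young CMs, with 3 of 5 old libraries above the highest young one. Bub1b had 0.291 to 0.645 FPKM in old and 0.152 to 0.530 FPKM in young libraries. Bub1 was the lowest of all members, at 0.0932 to 0.124 FPKM in old and 0.0353 to 0.165 FPKM in young libraries.

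Among spindle motors and kinetochore genes, only Cenpf passed the filter. Cenpf, a large kinetochore protein, was at 2.63 ± 0.646 FPKM in old and 2.43 ± 0.561 FPKM in young CMs (SD, n = 5 each), a log2 difference of 0.08. Old library 1, the highest old one for Kif11 and Cenpe, was the lowest for Cenpf at 1.79 FPKM. Kif11, the motor that parts the spindle poles, Cenpe, a kinetochore motor, and Tpx2, a spindle assembly factor, had old-to-young ratios of means of 1.30, 1.39 and 1.58. Nusap1, which bundles spindle microtubules, had a ratio of 0.800, the lowest of all members, with 0.228 to 0.371 FPKM in old and 0.0989 to 0.615 FPKM in young libraries.

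The genes of the midzone and cytokinesis, the last step of division, were all below 1 FPKM over the 10 libraries. Prc1, which crosslinks midzone microtubules, was at 1.01 ± 0.421 FPKM in old and 0.661 ± 0.0751 FPKM in young CMs (SD, n = 5 each). Its old libraries lay above the highest young one in 4 cases and below the lowest young one in the remaining case. Near-identical copies cover 20.6% of the longest Prc1 transcript. Birc5, the survivin gene, and the kinesin genes Kif23 and Kif20a had ratios of means of 1.28, 1.29 and 1.27. Kif20a, at 0.392 FPKM, had a mean normalized count of 101, and 32.3% of its exon bases overlap Cdc23, which was at 10.9 ± 0.795 FPKM in old and 11.2 ± 0.748 FPKM in young CMs. Whether reads were counted by strand is not given in the sources used here, so reads of overlapping genes may have been shared.

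Mki67, the usual marker of cycling cells, and Top2a, the topoisomerase that untangles DNA in mitosis, had higher means in old CMs and were below the filter. In the fit without the filter and with a pseudocount of 0.1 neither was called (limma adjusted p of 0.445 for Mki67 and 0.686 for Top2a). Mki67 was at 0.324 to 0.831 FPKM in old and 0.206 to 0.573 FPKM in young libraries, with means of 0.603 ± 0.198 in old and 0.390 ± 0.143 in young (SD, n = 5 each). Top2a was at 0.469 to 1.27 FPKM in old and 0.302 to 0.884 FPKM in young libraries, with means of 0.876 ± 0.314 in old and 0.673 ± 0.232 in young. For both, 3 of 5 old libraries were above the highest young library, old library 4 was the lowest old one and young library 5 the lowest young one.

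No replication helicase gene passed the test for age. Mcm2 had 2.12, 1.79, 2.17, 1.52 and 1.89 FPKM in old, against 1.89, 1.91, 2.08, 1.98 and 1.79 FPKM in young libraries. Mcm4 had 2.09, 1.53, 1.63, 1.63 and 1.56 FPKM in old, against 1.84, 1.61, 1.93, 1.76 and 1.23 FPKM in young libraries. Mcm7 had 2.94, 3.47, 2.79, 2.49 and 2.44 FPKM in old, against 2.26, 3.41, 3.3, 3.43 and 2.40 FPKM in young libraries. In each of these helicase subunits the old and young values were interleaved, and the log2 differences were -0.02, 0.01 and -0.04 for Mcm2, Mcm4 and Mcm7. A near-identical copy covers 80.2% of the longest Mcm7 transcript, so its level is uncertain.

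Mcm6 (chr1:130228168-130256233, minus strand, mm9) had 2.46, 1.19, 2.01, 1.02 and 1.33 FPKM in old, against 1.44, 1.37, 1.18, 1.91 and 1.12 FPKM in young libraries. Mcm3 had 1.84, 1.2, 1.33, 1.03 and 0.966 FPKM in old, against 1.08, 1.15, 0.862, 1.23 and 0.614 FPKM in young libraries. Both subunits were highest in old library 1 of the old and in young library 4 of the young libraries. Their log2 differences were 0.09 ± 0.16 for Mcm6 and 0.19 ± 0.13 for Mcm3 (SE), and the limma adjusted p of Mcm3 was 0.446. Without old library 1 the difference of Mcm6 turned to -0.02. Cdc45, which joins the helicase when it fires, was at 1.34 ± 0.206 FPKM in old and 1.39 ± 0.233 FPKM in young CMs (SD, n = 5 each), while Mcm5 and the loading factor Cdc6 stayed below 1 FPKM with ratios of means of 1.02 and 1.29. Near-identical copies cover 56.2% of the longest Cdc6 transcript, so its level is uncertain.

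Pcna, the sliding clamp (chr2:132074898-132079050, minus strand, mm9), had 20.7, 16.7, 17, 16 and 18.0 FPKM in old, against 19.0, 19.0, 18.0, 22.3 and 16.9 FPKM in young libraries. Its log2 difference was -0.10 ± 0.08 (SE, limma adjusted p = 0.542), with 2 of 5 old libraries below the lowest young one. A single near-identical copy covers 82.8% of its longest transcript, and the pseudogene Pcna-ps2 was listed at 3.49 ± 0.289 FPKM in old and 3.54 ± 0.274 FPKM in young CMs (SD, n = 5 each). The level of Pcna is therefore uncertain to the extent that reads fit both.

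The 2 subunits of ribonucleotide reductase, which makes deoxynucleotides, both had higher means in old. Rrm1, the large subunit, had 3.24, 3.63, 3.28, 3.46 and 3.60 FPKM in old, against 3.17, 3.36, 2.95, 3.21 and 2.88 FPKM in young libraries. It was the steadiest member, with 1.26-fold between the highest and the lowest library, and its log2 difference was 0.11 ± 0.05 (SE, limma adjusted p = 0.262). Rrm2, the subunit that limits activity in dividing cells, had 1.46, 2.48, 1.69, 0.497 and 1.45 FPKM in old, against 0.646, 0.980, 1.24, 0.893 and 0.637 FPKM in young libraries. Old library 4 was the lowest of all 10 for Rrm2 and the other old libraries were above every young one. The log2 difference was 0.38 ± 0.20 (SE, limma adjusted p = 0.311), and 37.8% of the longest Rrm2 transcript has near-identical copies. Tyms, thymidylate synthase, stood at 0.951 to 1.07 FPKM in the old libraries other than library 4, which had 0.234 FPKM, and at 0.514 to 1.04 FPKM in young libraries.

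The highest and the lowest values gathered in a few libraries. Of the 36 members 29 had their highest value in an old library, 14 in old library 1 and 12 in old library 2. The lowest value was in young library 5 for 17 members and in old library 4 for 11. Relative to each member's mean over the 10 libraries, the median mitosis member was at 1.31, 1.34, 1.11, 0.743 and 1.0 in old libraries 1 to 5, against 0.825, 0.930, 1.08, 0.885 and 0.482 in young libraries 1 to 5. The median replication member was at 1.23, 1.02, 1.07, 0.866 and 0.907 in old, against 0.962, 0.938, 1.06, 1.09 and 0.801 in young libraries. Old library 4 thus lay below 4 of the 5 young libraries on the mitosis scale and young library 3 above old libraries 4 and 5. These medians are given as a description, with no test over the members. How often the same libraries hold the extremes of all features was not counted, so the gathering is not shown to be particular to the members.

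**Figure D3:**
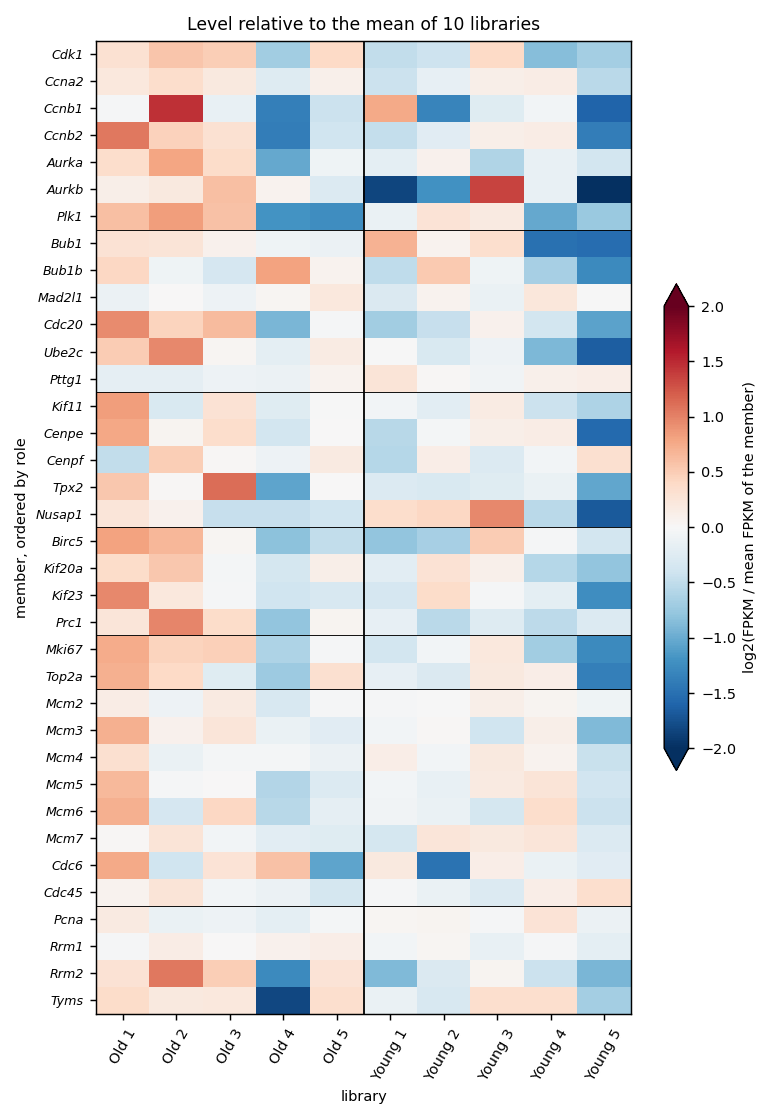
log2 of each member's FPKM over its mean in the 10 libraries, with old libraries left and young libraries right of the line and members ordered by role. Old libraries 1 and 2 are mostly red (26 members have their highest value there), and old library 4 and young library 5 mostly blue (28 members have their lowest value there).

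The second question was whether the members followed the RNA of cells that the beads were meant to remove. Ptprc, the gene of CD45, had 0.575, 0.254, 0.332, 0.314 and 0.440 FPKM in old, against 0.189, 0.322, 0.251, 0.472 and 0.234 FPKM in young libraries. Pecam1, the gene of CD31, had 41.3, 20.0, 25.5, 21.0 and 24.3 FPKM in old, against 21.6, 29.5, 22.9, 39.9 and 19.3 FPKM in young libraries. Both markers were highest in old library 1 and young library 4. Means were 0.383 ± 0.127 FPKM in old and 0.293 ± 0.111 FPKM in young for Ptprc (SD, n = 5 each, two-sided exact permutation p = 0.270), and 26.4 ± 8.61 FPKM in old and 26.6 ± 8.34 FPKM in young for Pecam1 (two-sided exact permutation p = 0.968). Ptprc rested on a mean normalized count of 22.8, so its own level in each library is imprecise.

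The libraries with high mitosis genes were only in part those with high markers. Old library 2, where 12 members peaked, had the lowest Ptprc and Pecam1 of the old libraries. Old library 1 had the highest of both. Young library 4, with the highest Ptprc and Pecam1 of the young libraries, had a median mitosis member at 0.885 of its mean and a median replication member at 1.09. Young library 5 had the lowest Pecam1 of all 10 libraries and the lowest values of 17 members.

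The members were then set against each marker over the libraries. Over the 10 libraries the median Pearson r with Pecam1 was 0.51 for the 12 replication members (11 of 12 above 0) and 0.18 for the 24 mitosis members (17 of 24 above 0), and 0.07 for all tested features. With Ptprc the medians were 0.38, 0.25 and -0.04. Members below 1 FPKM, more of them in the mitosis group, are included in the member medians, while all tested features averaged at least 1 FPKM. These are descriptions over the same 10 libraries, the members share their library's depth and makeup, and the difference between the roles was not tested. Without old library 1 and young library 4, which lay farthest from the median of both markers, the medians with Pecam1 were 0.29 for replication and 0.21 for mitosis members, and with Ptprc 0.03 and 0.20.

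In limma with age as a term, 2 of 15 tested members were called for a slope on log2(Pecam1 FPKM + 1), against 8.43% of 12339 features, and both slopes were positive, against 8.3% of features. Pcna had a slope of 0.32 ± 0.06 (SE, limma adjusted p = 0.00629) and Mcm6 one of 0.56 ± 0.13 (SE, limma adjusted p = 0.0298), while Mcm3 at 0.41 ± 0.13 was not called (limma adjusted p = 0.0855). For Ptprc, 1 of 15 was called, Pcna with a slope of 0.98 ± 0.22 (SE, limma adjusted p = 0.0336), against 5.22% of 12340 features, or 5.08% with a positive slope. The slopes of Ube2c, Cdk1 and Rrm2 on Pecam1 were 0.01 ± 0.25, -0.05 ± 0.24 and 0.10 ± 0.28 (SE), none of them called. A share of 2 in 15 lies near the share of all features, so it does not set the members apart.

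These calls were lost with single libraries. For Pecam1, 0 members were called without old library 1 (366 features overall), 0 without young library 4 (581 features) and 0 without both (0 features by limma, over 12233 tested). Without both, the slopes on Pecam1 were 0.23 ± 0.14 for Pcna and 0.51 ± 0.33 for Mcm6 (SE), and their unadjusted p-values in limma were 0.143 and 0.161. Mcm6 alone also lost its call when old library 2, old library 4, young library 3 or young library 5 was dropped (limma adjusted p of 0.0511 to 0.0607), and Mcm3 gained one without young library 1 (limma adjusted p = 0.0458). The call of Pcna for Ptprc was lost when any library but old 2, old 5 and young 1 was dropped (limma adjusted p of 0.0504 to 0.244). Over all features, 3 of 12288 were called for Ptprc without old library 1, 1 of 12307 without young library 4 and 0 without both. Other markers moved with the same libraries, since the endothelial, leukocyte, fibroblast and mural sums were all highest there, so the cell types cannot be told apart, and their part in the slopes was not tested.

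By correlation, without the age term, Pcna, Mcm6 and Mcm3 kept their positive sign, and fewer members passed. Pcna correlated with Pecam1 at r = 0.87 (permutation p = 0.00189, 0.0380 adjusted over 12339 features) and rho = 0.82 (permutation p = 0.00570, adjusted 0.151), and 6.14% of features passed by r and 0.843% by rho. Mcm6 had r = 0.83 (permutation p = 0.00559, adjusted 0.0725) and rho = 0.81 (permutation p = 0.00728, adjusted 0.167). Mcm3 had r = 0.72 (permutation p = 0.0147, adjusted 0.140) and rho = 0.67 (permutation p = 0.0386, adjusted 0.375). Over the 8 libraries other than old library 1 and young library 4, r was 0.57, 0.55 and 0.49 for Pcna, Mcm6 and Mcm3, with exact permutation p-values of 0.138, 0.160 and 0.225. The relation thus kept its sign but did not pass a test without these 2 libraries. With Ptprc, 0 members passed by r, against 0.0243% of features (3), and 0 by rho.

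**Figure D4:**
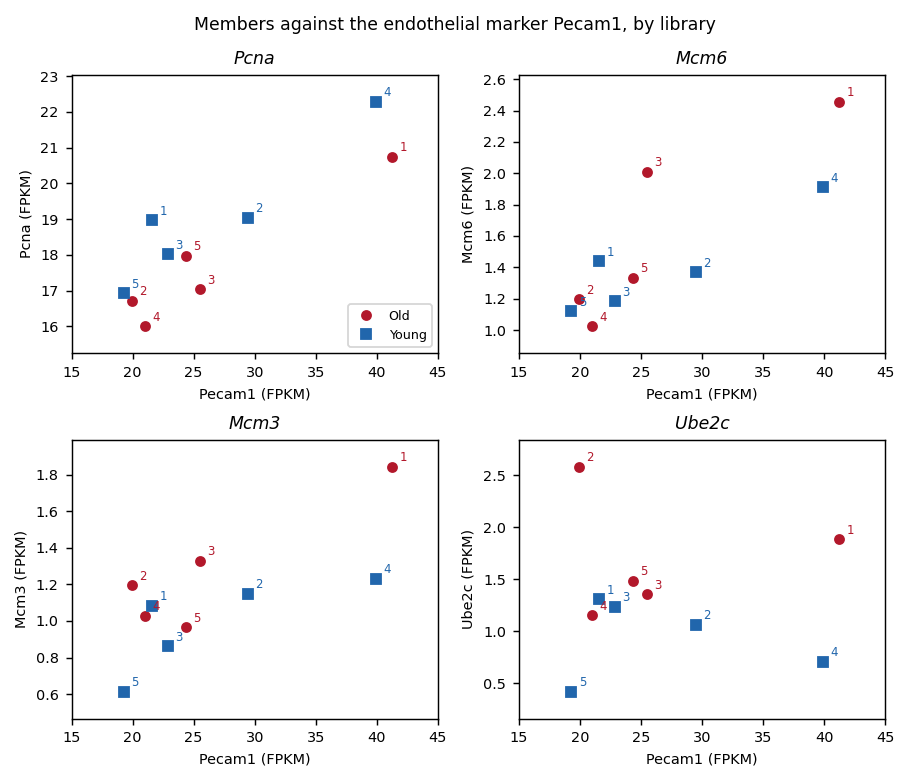
FPKM of Pcna, Mcm6, Mcm3 and Ube2c against FPKM of Pecam1, with a point for each old library (red circles) and young library (blue squares) and the library number beside it. Old library 1 and young library 4 lie alone at about 40 FPKM of Pecam1 with high Pcna and Mcm6, while Ube2c has r = -0.01 over the 10 libraries.

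Other genes of the same processes were read from lists beside the members. Over all tested features 1.78% were called and 20.9% had an unadjusted p under 0.05. Of 45 other mitosis genes, 10 were tested, 0 were called by limma and 0 had an unadjusted p under 0.05. Of these 10, 6 were higher and 4 lower in old, with a median log2 difference of 0.04. The others were below 1 FPKM and had no age test. All of them but Zwilch and Incenp had a higher mean in old, against 53.4% of features between the lowest member and 1 FPKM. Some of these genes lay below that range, such as Kif15 at 0.0563 FPKM in old and 0.0542 FPKM in young CMs. Cdca3 had 0.379 to 1.47 FPKM in old and 0.0754 to 0.365 FPKM in young libraries. Its ranges do not overlap, as in 4.18% of all features above 0, and it was the only gene of this list with such ranges. Of 40 other replication genes 38 were in the table and 24 tested, 0 were called and 3 had an unadjusted p under 0.05, with 3 higher and 21 lower in old and a median of -0.06, the same as that of all tested features. The replication genes below 1 FPKM had no age test, and all of them but Pola1, Prim2, Mcm10 and Cdc7 had a higher mean in old. Among their tested genes, neither list exceeded the share of all features called or with an unadjusted p under 0.05. The smallest p-values belonged to Orc3, a subunit of the origin recognition complex, at 11.6 ± 0.773 FPKM in old and 13.5 ± 0.314 FPKM in young CMs (SD, n = 5 each, limma adjusted p = 0.0646), and to Pold2, a subunit of DNA polymerase delta, at 12.6 ± 1.03 FPKM in old and 15 ± 1.46 FPKM in young CMs (limma adjusted p = 0.119). The ranges of Orc3 do not overlap either, at 10.3 to 12.3 FPKM in old and 13.2 to 13.9 FPKM in young libraries, as in 6.91% of tested features. Smc4, a condensin subunit, had the smallest p of the other mitosis genes, at 2.75 ± 0.512 FPKM in old and 3.19 ± 0.147 FPKM in young CMs (SD, n = 5 each, limma adjusted p = 0.306).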

How the data were processed

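Per the study's methods, TopHat2 placed the read pairs on mm9, unique alignments were counted with HTSeq and compared with DESeq2, and the authors computed FPKM with Cufflinks (other versions are not given in the sources used here). All 37819 features of the deposited FPKM table were used unscaled, after removal of 1 stray line. From the authors' comparison only the deposited mean normalized count, a signal value per gene, was used. Its fold changes and p-values were not used, nor were 10 columns of values per sample that match no library. Of its mean normalized counts, 73.9% fell in 5 entries that name no gene.

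Features averaging 1 FPKM or more were tested with limma 3.58.1 in R 4.3.3 (lmFit, eBayes with a trend) on log2(FPKM + 1), a scale that understates changes of low genes. Tests were two-sided, with Benjamini-Hochberg adjustment over all tested features and a threshold of 0.05. Correlations used 100000 permutations (scipy 1.17.1, Python 3.11.15), and exact enumeration over 8 libraries. Scripts were tested on simulated data. The labels do not say that libraries come from separate animals, so p-values measure the spread between libraries, which may be technical. Total FPKM was 1155614 to 3289461 per library, highest in old library 1, while that of protein-coding genes was 399825 to 458918. Median-ratio scaling factors were 0.945 (old library 4) to 1.053 (young library 2), with 0.993 for old library 1. Gene positions, biotypes and overlaps are from GENCODE on mm9, and near-identical copies (at least 95% identity over 100 bases) were found with blastn 2.17.0. Promoter sequences are from RefSeq (GRCm38.p6). The members, lists, roles and tests were chosen with earlier results of these data known. All 36 members could be named. Full values went to the tested members with the smallest p for age, the highest level or the strongest slope on a marker. Alternatives were another pseudocount, filter or scaling, blocks, array weights, marker covariates and leaving out each library. Leaving out old library 1 and young library 4 together was added after the data were seen.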

Additional observations from a re-analysis of the deposited data

Results flagged for a closer look

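In groups of 5 libraries, 8 of the 76 groups examined (36 members, Ptprc and Pecam1 in each age) had 1 library far from the other 4. Chance flags about 1 in 20 groups when they are independent and normally distributed. These groups share libraries and many rest on few reads, so that rate need not hold, and an excess was not tested. Old library 4 was low for Cdk1, at 0.888 FPKM against 1.77 to 2.12 in the other old libraries, and for Tyms, at 0.234 FPKM against 0.951 to 1.07. Old library 1 was high for Mcm4, at 2.09 FPKM against 1.53 to 1.63, and for Pecam1, at 41.3 FPKM against 20.0 to 25.5. Old library 2 was high for Ccnb1, at 0.775 FPKM against 0.109 to 0.277, and old library 5 was high for Pttg1, at 88.4 FPKM against 74.5 to 78.3. Among young libraries, library 3 was high for Cdk1, at 1.89 FPKM against 0.792 to 1.08, and library 5 was low for Tpx2, at 0.178 FPKM against 0.294 to 0.332. Cdk1 was thus marked in both ages, by an old library among the young values and a young library among the old ones.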

How the results depend on the processing

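No tested member was called for age under any alternative. The number of all features called was 220, and it became 135 with median-ratio scaling, 26 with same-numbered libraries as blocks, 82 with Ptprc as a covariate, 49 without old library 1 and young library 4, 300 with array weights, 297 with Pecam1 as a covariate, and 33 to 146 when each library was left out. The median log2 difference of the tested members was 0.08, 0.0308 to 0.105 when each library was left out, -0.145 with a minimum of 5 FPKM (2 members) and -0.0180 with Ptprc as a covariate. Small differences turned sign. With median-ratio scaling these were Mcm2 (0.0247), Mcm7 (0.00721) and Cdc45 (0.00914), and with rescaling to 1 protein-coding total Mcm2 (0.0196) and Cdc45 (0.00468). Mcm4 turned with array weights (-0.00417), and Mad2l1 (-0.0180), Mcm4 (-0.0345) and Mcm6 (-0.0489) with Ptprc as a covariate. Leaving out 1 library, or old library 1 and young library 4, gave differences of -0.0192 to 0.0813 for Mad2l1, -0.00403 to 0.176 for Cenpf, -0.0530 to 0.0292 for Mcm2, -0.0537 to 0.0455 for Mcm4, -0.0157 to 0.178 for Mcm6, -0.110 to 0.000809 for Mcm7 and -0.0720 to 0.0202 for Cdc45. For Ptprc, 1 member was called, and 0 without the age term, with a pseudocount of 0.1, with the replicate block or without the 2 libraries. Leaving out each library gave 0 to 1. Over all features 644 were called for Ptprc, 3 without old library 1, 1 without young library 4 and 0 without both. The slopes on Ptprc of Mcm3 (-0.186 to 1.2) and Mcm4 (-0.111 to 0.667) turned sign without the 2 libraries. For Pecam1, 2 members were called, and 0 with the replicate block or without the 2 libraries, and 0 to 3 when each library was left out. Here 1040 of all features were called, 366 without old library 1, 581 without young library 4 and 0 without both. By correlation, 1 member was called for Pecam1, against 6.14% of features, and 0 without the 2 libraries, against 0 features. After subtracting the mean of each age 3 were called, against 8.77% of all features tested that way. The causes were not tested. Same-numbered libraries did not deviate together (r of -0.16 to 0.06, and 2 of 5 old libraries matched their own number best). These values cannot show whether same-numbered libraries were prepared together. Most members rest on few reads (median mean count 28.2), which limits the precision of their values.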
